A study of Mus musculus with 3 samples.

Results

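The genes described here are expressed genes whose retained-intron transcripts took more of the gene's transcript level than all its other transcripts together. A gene was taken when it had an annotated protein_coding transcript, a mean gene level of 50 TPM or more over the 3 libraries, and retained_intron transcripts that summed to over 50% of its TPM in every library. TPM is a level divided by transcript length and scaled to the library total, and the share of a gene's TPM held by a transcript class is called the retained-intron share below. Genes whose symbols began with Ikzf, Srsf, Hnrnp, Rpl, Rps, Eif, Psm, Cd, Klf or Hsp were left aside, which removed 8 genes, among them Ikzf2 and Cd83. The rule gave 112 genes of 55536 mouse genes, or of 1922 genes that reached 50 TPM and had both transcript classes. Because these shares and levels chose the genes, their size is given as a description and without a test. Only differences between the libraries were tested. The rule limited these too, since it left out genes at 50% or less in any library and used the mean level over the libraries.

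The RNA came from regulatory T cells, the Foxp3-expressing CD4 T cells that restrain immune responses. Per the labels, the mouse was a 4-month-old adult male that carried Foxp3CreERT2, in which the Foxp3 locus drives an inducible Cre recombinase, and the Rosa26YFP reporter, and the source text names bone marrow haematopoietic cells as the origin. Whether the inducer was given is not stated in the sources used here. The poly(A)-selected libraries are labelled technical replicates 1, 2 and 3 of 1 biological replicate, so 1 group exists, no condition can be compared, and every p-value below measures only the spread between libraries. The labels do not state if a single RNA preparation was divided among them, so an SD or p-value over them may hold more than technical spread. The libraries held 9299054, 9188612 and 8284381 expected counts on mouse genes. All 6 regulatory T cell markers and all 4 T cell markers were at 1 TPM or more in every library. Their summed levels were 2882 to 3156 TPM and 5941 to 6519 TPM. Some single regulatory T cell markers were less even than their sum. Foxp3 was lowest in library 1, where it had 27.6 TPM, with 43.7 TPM in library 2 and 47.1 TPM in library 3. Library 1 was also lowest for Il2ra, whose levels were 210.6, 331.9 and 369.4 TPM. Ctla4 and Ikzf2 were lowest there too, by less. Tnfrsf18 was instead highest in library 1, at 760.9 TPM, and Izumo1r was lowest in library 3. Markers of other cells were far from equal between libraries. The 5 erythroid markers summed to 1681, 9.02 and 1495 TPM in libraries 1, 2 and 3, the 3 plasma cell markers to 1940.4, 205 and 1283 TPM, and the 4 neutrophil markers to 31.1, 0 and 0.67 TPM. Most of the plasma cell sum was Igkc, at 1842, 200.6 and 1203 TPM. Of the other plasma cell markers, Jchain had 98.5, 4.42 and 79.7 TPM, and Sdc1 stayed under 1 TPM at 0.21, 0.33 and 0.3 TPM. The CD8, B cell and macrophage sums stayed between 12.99 and 106 TPM in every library.

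An intron left in an otherwise spliced, polyadenylated RNA usually changes or ends its reading frame. Such RNA can be held in the nucleus as a detained-intron transcript that may be spliced later, or it can reach the cytoplasm, where a premature stop codon can send it to nonsense-mediated decay. Genes for splicing regulators, among them the CLK kinases and O-GlcNAcase, are known examples of detained introns, and changes of intron retention have been described during T cell activation. In the GENCODE catalogue the retained_intron label covers any transcript model with sequence that is intronic relative to coding transcripts, and many such models are partial.

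The sequence that sets these transcripts apart from coding transcripts is printed first. A leading retained-intron transcript is the one with the highest mean share among the retained_intron transcripts of its gene. It need not lead the gene. Kcnn4-204 held 32.9%, against 38.6% for the coding Kcnn4-202. Some leading models printed from below were small parts of the gene, with 11.2% for Tia1-216, 21.5% for Clk1-205 and 22.75% for Rbm39-205. In 27 of the 112 genes it held at least 1 whole intron of a coding transcript, 35 introns in all. The 8 introns below were chosen as short ones from the metabolic, channel, nucleolar, antigen-processing, interferon and mitochondrial genes described later. They are given 5′ to 3′ on the strand of the gene, read from GENCODE M21 transcripts on mm10. Capitals mark the first stop codon in the reading frame of the coding transcript, and the last 2 introns hold none in that frame.
Slc1a5 intron 7: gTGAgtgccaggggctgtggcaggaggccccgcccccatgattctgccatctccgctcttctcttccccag
Dgat1 intron 12: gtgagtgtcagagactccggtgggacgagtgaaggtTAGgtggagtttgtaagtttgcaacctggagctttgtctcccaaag
Dgat1 intron 13: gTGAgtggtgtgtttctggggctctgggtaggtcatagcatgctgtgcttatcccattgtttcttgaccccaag
Kcnn4 intron 6: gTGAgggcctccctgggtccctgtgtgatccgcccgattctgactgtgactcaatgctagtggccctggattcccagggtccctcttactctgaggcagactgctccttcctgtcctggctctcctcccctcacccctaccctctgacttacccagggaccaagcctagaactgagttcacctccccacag
Ncl intron 10: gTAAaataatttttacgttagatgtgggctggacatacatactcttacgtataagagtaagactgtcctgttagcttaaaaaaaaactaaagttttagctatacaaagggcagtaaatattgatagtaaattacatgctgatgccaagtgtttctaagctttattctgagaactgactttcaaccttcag
Tap2 intron 6: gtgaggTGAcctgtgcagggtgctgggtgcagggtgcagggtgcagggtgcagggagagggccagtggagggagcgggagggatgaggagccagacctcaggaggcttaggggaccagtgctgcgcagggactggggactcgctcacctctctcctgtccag
Irf3 intron 5: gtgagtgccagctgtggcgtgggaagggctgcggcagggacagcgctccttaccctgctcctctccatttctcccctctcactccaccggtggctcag
Prelid1 intron 3: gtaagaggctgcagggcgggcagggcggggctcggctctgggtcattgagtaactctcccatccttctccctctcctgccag
The introns lie at chr7:16795953-16796023 in Slc1a5 (plus strand), chr15:76503072-76503153 and chr15:76502885-76502958 in Dgat1 (minus), chr7:24382281-24382471 in Kcnn4 (plus), chr1:86352320-86352509 in Ncl (minus), chr17:34212068-34212229 in Tap2 (plus), chr7:45000547-45000644 in Irf3 (plus) and chr13:55324445-55324526 in Prelid1 (plus). All 8 begin with GT and end with AG.

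In most of the genes, the leading model instead began or ended in sequence outside every coding exon and crossed at least 1 splice site unspliced. The 8 windows below show such a crossing in genes of RNA processing and in members with high levels. Each has 10 exon bases in capitals and 20 intron bases in lower case.
Clk1 acceptor: acttttattttctttaacagGGGAGGTAGA
Clk1 donor: TCTGTAAACTgtaagttcttgatatttctt
Ms4a4b acceptor: tggtatgaatctgtttttagGGTTTGGATG
Rbm39 donor: TTACAAGAAGgtgagaaaacacgctagtga
Tia1 donor: CGTTCACAAGgtaattgtatcttcttaaac
Ddx6 donor: GTTTGCACTGgtaagtgtttttgtatttct
Mgea5 acceptor: taactagattatattttcagGCTTCCGTGT
Sat1 acceptor: atgggatactctgattacagGACATAGCAT
These windows lie at chr1:58417374-58417403 and chr1:58416993-58417022 in Clk1 (minus strand), chr19:11461237-11461266 in Ms4a4b (plus), chr2:156179157-156179186 in Rbm39 (minus), chr6:86419124-86419153 in Tia1 (plus), chr9:44631437-44631466 in Ddx6 (plus), chr19:45758425-45758454 in Mgea5 (minus) and chrX:155214125-155214154 in Sat1 (minus).

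The median retained-intron share of the 112 genes was 67.0%, 66.9% and 66.4% in libraries 1, 2 and 3. Per-gene means ran from 52.1% to 99.8%, with 21 genes at 80% or more and 6 over 90%. In the 1810 other genes at 50 TPM with both classes the median of the mean shares was 9.49%, against 65.7% in the 112. The plot of the share across expressed genes shows no gap at 50%. Just over the threshold in their lowest library stood Stap1 at 50.2%, Sat1 at 50.4% and Rbm39 at 50.7%, and just under it Prpf39 at 49.99%, Aup1 at 49.2% and Ccnl2 at 49.1%. By level, Trim33, Gpat4 and Trmt2a entered with means of 50.4, 50.7 and 50.8 TPM, and Pdcd5, Tbl3 and Cstf3 stayed out with 49.8, 49.7 and 49.3 TPM.

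**Figure D1:**
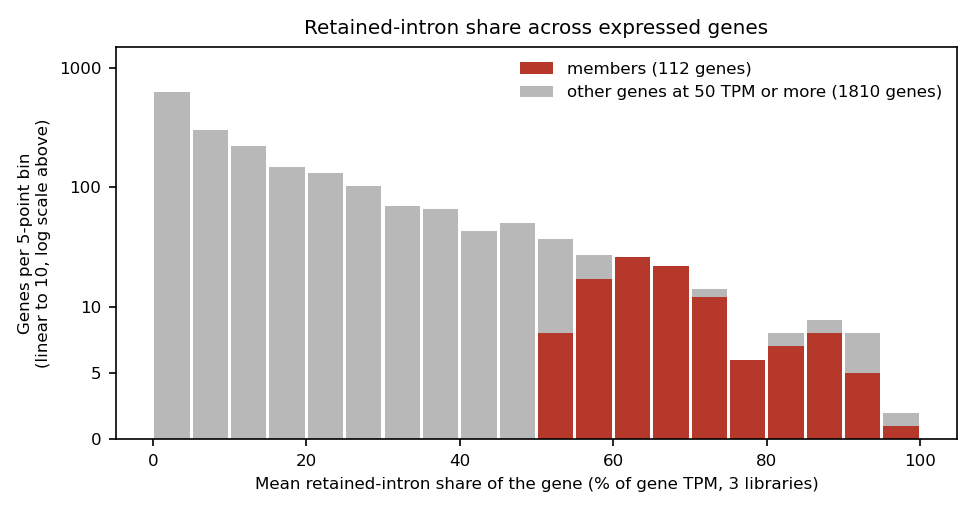
Number of genes (vertical axis, linear to 10 and logarithmic above) by mean retained-intron share in percent of gene TPM (horizontal axis, bins of 5 points), for the 112 members in red and, stacked on them, the 1810 other genes at 50 TPM or more in grey. The bins just below and just above the threshold hold 50 and 37 genes; grey genes above 50% were either below it in at least 1 library or left aside by their symbol.

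The 112 genes made up 1.57%, 1.75% and 1.73% of TPM in the 3 libraries, and their retained-intron transcripts were 17.5%, 15.1% and 14.97% of all retained-intron TPM. Their median gene level was 88.9 TPM, of which the median retained-intron level was 60.8 TPM and the median coding level 22.6 TPM. Coding transcripts reached 50 TPM in 13 genes and stayed under 10 TPM in 18 and under 5 TPM in 9. A gene at 50 TPM or more by its gene table could therefore hold little annotated coding RNA. In 76 genes the leading retained-intron transcript was the most abundant transcript of the gene in each library. In 37 that transcript alone exceeded 50% in each library, and 12 genes had a single annotated retained-intron transcript, against a median of 4 and a maximum of 14, in Tia1. Transcripts annotated for nonsense-mediated decay took 10% or more of the gene in 19 of the 112, at most 28.2% in Birc6.

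Genes of RNA processing, export and decay formed 20 of the 112. The role groups used here and below were assigned after the members were seen. The same roles were not counted over the 1922 genes, so the group sizes only order the description. The 20 genes of RNA processing, export and decay had a median share of 64.8% and a median gene level of 90.6 TPM. Clk1, a kinase that phosphorylates SR splicing factors, had 296, 459.6 and 442 TPM in libraries 1, 2 and 3. Its retained-intron share was 54.0%, 59.6% and 61.7%, so library 1 was lowest on both counts. The leading model, Clk1-205, has 430 bases in 2 exons and runs from intron 5 to intron 7 of the leading coding transcript, across the acceptor and donor printed above. Clk1 coding transcripts averaged 39.3 TPM, against 236 TPM for its retained-intron transcripts.

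Mgea5, which encodes O-GlcNAcase, the enzyme that removes O-linked N-acetylglucosamine from proteins, stood at 110, 195 and 178 TPM. Its shares were 59.6%, 64.9% and 67.2%, again lowest in library 1. Rbm39, an SR-related splicing factor, was among the most abundant of the group at 430, 467 and 472 TPM, with shares of 56.8%, 50.7% and 53.6%. Its leading model, Rbm39-205, ends 618 bases into intron 2. Tia1, a regulator of alternative splicing and a component of stress granules, had 58.4%, 66.7% and 60.6%. In Rbm39 and Tia1 the leading model runs past the donor site printed above and ends outside the coding exons.

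Thoc1, a subunit of the THO complex that couples transcription to mRNA export, had the highest share of the group at 91.3%, 88.2% and 89.96%, with a coding level of 16.5 TPM of 161 TPM. Prpf38b, a spliceosome-associated factor, had 59.4%, 55.1% and 59.0%. Trmt2a, a tRNA methyltransferase, had 52.0%, 56.5% and 51.9% and the lowest mean of the group, 53.5%. Other members here were Snrpb2 of the U2 snRNP, Paxbp1, Rbm4b, Zc3h7a, the nuclear N6-methyladenosine reader Ythdc1, the cap methyltransferase Pcif1, the export factor Gle1, the decay helicase Ddx6, the microRNA silencing protein Tnrc6b, the RNase P subunit Rpp21, Dalrd3 and Tsn. Their means lay between 56.7% in Gle1 and 87.6% in Tsn.

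Lists of splicing genes were compared by counts alone, as a description. Of 9 kinases and enzymes known for detained introns that reached 50 TPM with both classes, 2 were members (Clk1 and Mgea5), and the list's median share was 38.1%. Ogt, the O-GlcNAc transferase, had 62.0%, 44.0% and 44.4%, and Clk4 had 32.3%, 39.1% and 42.7%. Of 28 SR-related and auxiliary splicing factors 3 were members, with a list median of 22.9%. Core spliceosome genes gave 1 of 16 (median 15.4%), minor spliceosome genes 0 of 2 (29.0%), and genes of nonsense-mediated decay and nuclear RNA surveillance 1 of 7 (19.96%). Of the 15 genes in the list of regulatory T cell and T cell receptor signalling 0 were members, with a median of 10.3%. Over all genes with both classes it was 112 of 1922 genes (5.83%), with a median of 10.5%. The 0 depends on the list and on the rule. Ikzf2, a regulatory T cell marker, exceeded 50% in each library, but its symbol was left aside and it is not in the list. The member Tespa1, described below, is not in the list either. Symbols left aside could not count as members in any list.

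Lymphocyte receptors, signalling and immune defence gave 22 genes with a median share of 64.5%. Ms4a4b, a 4-transmembrane protein of T cells, was the most abundant member at 2040.4, 1915 and 1964 TPM. Its retained-intron share was 92.5%, 92.7% and 92.1%, and its coding transcripts averaged 147 TPM. The leading model, Ms4a4b-207, is 550 bases long and begins 118 bases before the acceptor of intron 5, against 4750 bases for the leading coding transcript.

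Tespa1, a protein of T cell receptor signalling in thymocytes, had shares of 67.7%, 60.8% and 56.9% at 310 ± 14.1 TPM (SD, n = 3). Tmem173, which encodes the cytosolic DNA sensor adaptor STING, had 55.5%, 63.9% and 56.8% at 326 ± 17.7 TPM. Kcnn4, the calcium-activated potassium channel of lymphocytes, had 55.1%, 52.6% and 51.7%. The 3 Kcnn4 levels were far apart, at 51.9, 119.8 and 98.1 TPM, while its shares differed by 3.35 points. Stap1, an adaptor protein of lymphocytes, had 50.2%, 54.3% and 59.97%. Lilrb4a, an inhibitory immunoglobulin-like receptor, had 54.0%, 84.6% and 86.4%, the widest difference of any member, although its gene level was 101.5, 94.7 and 90.3 TPM.

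Further members of this group were the interferon pathway genes Irf3, Uba7 and Azi2, the peptide transporter subunit Tap2, the Ras GTPase-activating proteins Rasal3 and Rasa1, and the proton pump subunit Tcirg1. It also held Rinl, Birc6, Nsmaf, Wnk1, Ankrd44, Ppp6r3, Pik3c2a and Pdcl3. Mean shares of these 15 ran from 55.2% in Birc6 to 79.9% in Ankrd44.

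Pkp3 headed the 9 genes of cytoskeleton and cell adhesion and had the highest share of all. Pkp3 encodes plakophilin 3, a desmosome protein best known from epithelia. It stood at 325, 337 and 324 TPM, and its share was 99.8% in each library. Coding transcripts of Pkp3 averaged 0.61 TPM, so nearly all of its level lay in retained-intron models. The leading one, Pkp3-205, takes 88.3% of the gene, begins 138 bases before the acceptor of intron 6 and shares its end with the coding transcript to within 3 bases. By counts as well, 3013 of 3028, 2638 of 2648 and 2250 of 2260 expected counts of Pkp3 were on retained-intron transcripts. Plekhg2, a guanine nucleotide exchange factor, had 94.0%, 93.2% and 94.4% with 3.42 TPM of coding transcripts out of 63.3 TPM. Pear1, a platelet aggregation receptor, had 76.9%, 67.8% and 61.8%. The others were Sptan1, Tbce, Tubgcp4, Akap9, Krit1 and Miip, with means from 62.7% to 77.3%.

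Chromatin, transcription and DNA replication gave 17 genes with a low median level, 59.3 TPM, and a median share of 64.0%. Ccnd3, cyclin D3 of the G1 phase, had 64.6%, 54.0% and 69.7%, with library 2 lowest. Trim33, a ubiquitin ligase that acts on transcription factors of the TGF-beta pathway, had 77.0%, 83.4% and 83.5%. The rest were Nsd3, Phip, Baz2a, Trrap, Uty, Hltf, Rfc1, Rfc2, Top3b, Vgll4, Gtf2h3, Ccnt2, Arid5b, Hdac7 and Mms19, between 55.9% in Vgll4 and 86.2% in Rfc2.

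The 5 nucleolar and ribosome assembly genes were Ncl, Nmd3, Lsg1, Nol7 and Wdr18. Ncl, nucleolin, had 91.4%, 89.8% and 88.3% at 243 ± 6.24 TPM (SD, n = 3), with 24.7 TPM of coding transcripts. Its leading model, Ncl-202, is 3072 bases long and keeps introns 9 and 10, of 492 and 190 bases. Nol7 had 52.4%, 66.9% and 68.2%, lowest in library 1. Lsg1 had the lowest mean share of the 112, 52.1%.

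The 12 mitochondrial genes had a median share of 65.4%. Prelid1, a phosphatidic acid carrier of the intermembrane space, had 91.2%, 92.0% and 90.1%, and its leading model keeps the intron printed above. Mrpl57, a protein of the large mitochondrial ribosome subunit, had 93.1%, 92.0% and 89.9%. Atp5j, a peripheral stalk subunit of ATP synthase, had 88.0%, 86.5% and 86.7% at 319 ± 24.7 TPM. Cox7b, a subunit of cytochrome c oxidase, had 57.5%, 55.1% and 60.5%, and 2510002D24Rik had 59.0%, 62.4% and 61.2%. Timm17a, Timm21, Ndufa10, Mrps5, Mtx1, Ppox and Myg1 had means from 55.2% to 75.1%.

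Lysosome, trafficking and autophagy gave 8 genes and the highest median level of the groups with more than 6 genes, 176 TPM. Ctsb, the lysosomal protease cathepsin B, had 491, 499.6 and 448 TPM and shares of 65.6%, 65.0% and 65.8%. Tbc1d4, a Rab GTPase-activating protein, had 56.1%, 61.1% and 61.8%. Vps16, Atp6v1d, Gabarapl2, Trappc4, Dctn6 and Sbf1 lay between 53.0% and 81.0%. Among 10 genes of metabolism and transport, Sat1, the rate-limiting enzyme of polyamine catabolism, had 526, 551 and 512 TPM and shares of 50.4%, 53.8% and 55.3%. Sri, the calcium-binding protein sorcin, had 74.97%, 72.8% and 73.3%, and Gpat4, an acyltransferase of glycerolipid synthesis, 56.4%, 62.4% and 66.3%. The glutamine transporter Slc1a5, Atic, Dgat1, Pnpla7, Cers4, Ahcyl2 and Pitpnm1 completed that group.

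The protein folding and turnover genes were Usp15, Stub1 and Sugt1, at 67.5% to 89.5%. The 6 genes outside these groups were Hba-a1, Grcc10, Izumo4, Adck5, Adamts10 and Prrc2a. Grcc10 had 79.0%, 78.6% and 82.9% at 438 ± 63.3 TPM. Prrc2a had 94.1%, 93.6% and 94.4% at 55.2 ± 15.1 TPM, one of the highest shares. Hba-a1, alpha globin of red cells, had 344, 3.59 and 297 TPM and shares of 87.9%, 100% and 76.8%. In library 2 that share rested on 7.85 expected counts. Hba-a1 is itself 1 of the 5 erythroid markers above and reached 50 TPM through libraries 1 and 3 alone. The other 4 summed to 1337, 5.43 and 1198 TPM, likewise lowest in library 2, and fewer cells of a type cannot be told apart from less RNA per cell in such bulk libraries. Its near-identical neighbour Hba-a2 makes its counts uncertain.

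**Figure D2:**
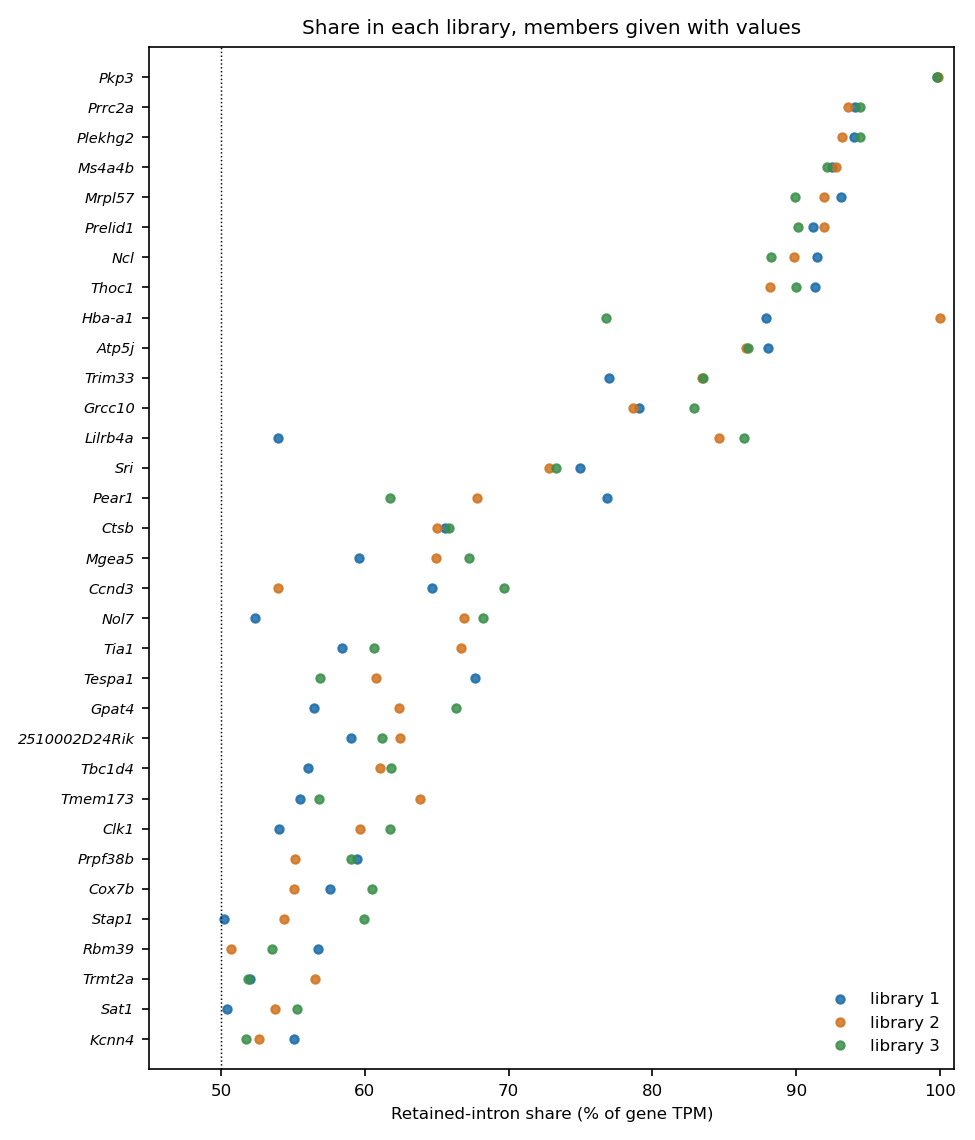
Retained-intron share in percent of gene TPM (horizontal axis) in libraries 1, 2 and 3 (coloured points) for the 33 members whose library values are given in the text, ordered by their mean; the dotted line marks 50%. The points of most genes lie within 10 points of each other, while Lilrb4a spans 32.4 points and Hba-a1 23.2 points.

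The spread of the share between libraries was mostly small against its level. The rule itself limited this spread, since a member had to exceed 50% in every library. The median SD over the 3 libraries was 3.34 points. The lowest and highest library differed by under 5 points in 47 genes and by 10 points or more in 24. The smallest ranges were 0.05, 0.59 and 0.78 points in Pkp3, Ms4a4b and Prrc2a, whose shares were over 90%, where little room is left for a difference in points.

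Other measures of the same reads were set beside this share, since TPM divides each count by transcript length and the members were chosen on TPM. In the second transcript table, made from the reads without that alignment, the median share was 68.6%, and 100 of the 112 genes were over 50% in each library. There, 4 genes were over 50% in none. The lowest means there were 40.1 ± 4.65% in Cox7b, 42.0 ± 2.31% in Kcnn4, 45.1 ± 1.49% in Rbm39, 46.3 ± 3.21% in Tbc1d4 and 46.4 ± 3.95% in 2510002D24Rik (SD, n = 3 each). The highest were 99.2% in Pkp3, 94.2% in Thoc1 and 94.1% in Prrc2a.

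By share of expected counts, which is not divided by length, the picture was different. The median was 51.0%, and 49 genes were over 50% in each library while 44 were over 50% in none. In 12 genes retained-intron transcripts held under 25% of the counts on average. The lowest was Pcif1, with 10.2% of counts against 60.8% of TPM. Ctsb had 20.7 ± 0.28% of counts against 65.5 ± 0.43% of TPM (SD, n = 3). Pkp3 and Plekhg2 stayed high, at 99.6% and 92.1% of counts, as did Ahcyl2 at 90.2%. Clk1 and Mgea5 had larger shares of counts than of TPM, 64.1% and 72.6%, as had 18 genes in all. All 3 measures were over 50% in each library in 46 of the 112 genes.

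The difference between measures went with transcript length, by which TPM is divided. The leading retained-intron transcript had a median of 913.5 bases and the leading coding transcript 2827.5 bases, and it was the shorter of the pair in 94 of 112 genes. The median length ratio was 0.414, against 0.588 in the other 1810 genes. In the 28 members with the lowest length ratios the median count share was 34.99%, and it was 49.4%, 53.7% and 65.9% in the next 3 sets of 28. The median TPM share in the same sets was 65.6%, 64.4%, 67.1% and 67.3%.

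**Figure D3:**
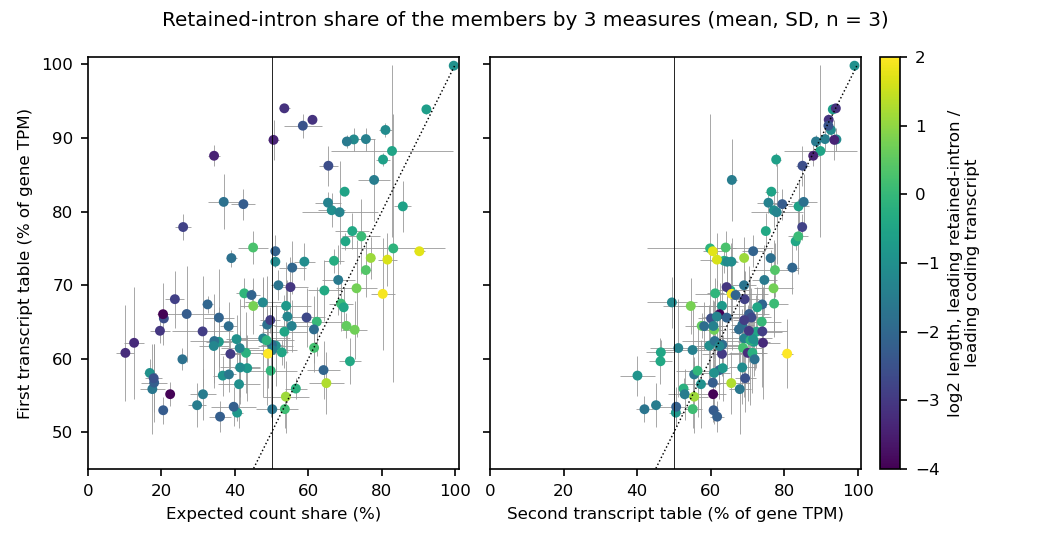
Retained-intron share by TPM in the first transcript table (vertical axis, percent) against the share of expected counts (left, percent) and the TPM share in the second transcript table (right, percent) for the 112 members; points are means and lines SD over 3 libraries, colour is the log2 length ratio of the leading retained-intron to the leading coding transcript, and the dotted line marks equality. On the left 94 genes lie above the line, with the shortest retained-intron models farthest from it, while on the right the points scatter on both sides.

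The structure of the leading models was compared between the 112 genes and the other 1810, as counts without a test. A whole intron of a coding transcript was held in 27 members (24.1%), against 615 other genes (34.0%). In 48 members (42.9%) the model began outside all coding exons and kept no whole intron, against 420 others (23.2%). It ended outside them in 22 (19.6%), against 586 (32.4%), and did both in 11 (9.82%), against 171 (9.45%). The most frequent shape among members was thus a model whose start lies outside the coding exons, as in Ms4a4b, Pkp3, Sat1 and Mgea5.

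Bases outside every coding exon, the part of a model that no coding transcript of the gene contains, were few in many members. Their median was 159 bases (17.96% of the model) in the 112, against 362 bases (43.7%) in the others. There were 50 or fewer such bases in 15 members and 20 or fewer in 10, among them Sri with 11 and Grcc10 with 20. Vps16 and Dalrd3 had 0, since each of their bases lies in an exon of some coding transcript. At the other end, 30 members had 500 or more and 15 had 1000 or more, such as Stap1 with 1563. The median TPM share was the same in both, 65.7%, while the median count share was 44.95% with 50 or fewer outside bases and 59.1% with 500 or more.

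An outside stretch crossed a GT donor or an AG acceptor in 109 of the 112 genes. This number follows largely from the definition, since a border between such a stretch and a coding exon is mostly a splice site. The other genes were not counted for it or for the numbers of each site. Acceptors were crossed in 84 genes and donors in 55, with 54 genes crossing acceptors and no donor and 25 crossing donors and no acceptor. In 4 members (3.57%) most of the leading model, by length, overlapped exons of another gene, near the 52 of 1810 other genes (2.87%). The 4 members were Dalrd3 with Wdr6 (92.4%, opposite strand), Grcc10 with Gm45234 (94.8%, same strand), Lilrb4a with Gm49339 (74.9%, same strand) and Stub1 with Jmjd8 (61.3%, opposite strand). The sources used here do not say if reads were counted by strand, and the reads of these genes are uncertain.

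**Figure D4:**
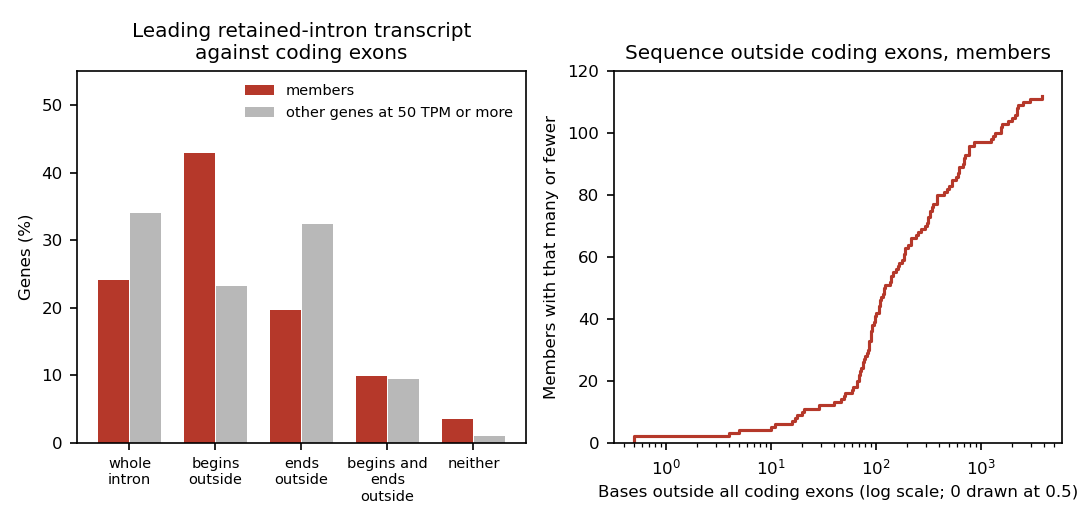
Left, percent of genes in each structure class of the leading retained-intron transcript for the 112 members (red) and the 1810 other genes at 50 TPM or more (grey); outside means beyond every exon of the gene's coding transcripts. Right, cumulative number of members (vertical axis) by the bases of the model outside coding exons (horizontal axis, log scale); 15 members have 50 or fewer, and the median is 159.

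The 35 wholly kept introns were short. Their median length was 178 bases (quartiles 89.5 and 318.5), against 253 bases in the 797 kept introns of the other genes. The 1422 introns of the members' leading coding transcripts that were not wholly kept had a median of 880.5 bases. They include introns that a partial model does not reach or enters only in part. A short model also cannot hold a long intron whole, so model length bears on this difference. Among the kept introns, the shortest was the 71-base intron 7 of Slc1a5 and the longest the 2981-base intron 1 of Krit1. Median GC content was 51.2%, against 49.8% in the other genes, and all 35 had GT and AG at their ends, against 98.4% of the others.

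Of the 35 introns, 31 lay within coding sequence and 30 could be read in frame. An in-frame stop codon stood in 26 of the 30 (86.7%), against 633 of 693 (91.3%) in the other genes. The median first base of that stop was base 36 of the intron, and in 5 introns it was base 2, as in Slc1a5, Kcnn4, Ncl intron 10 and Dgat1 intron 13. The 4 introns with no in-frame stop were in Irf3, Prelid1, Dalrd3 and Wdr18. Only the Wdr18 intron, of 90 bases, has a length that is a multiple of 3. Among kept introns of the leading coding transcripts, 2 were first introns (6.25%) and 1 was a last intron (3.1%). In the other genes 12.2% were first and 9.78% were last.

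Gene levels differed between the 3 libraries in 99 of 112 members by a chi-square test of rounded expected counts against TMM-scaled totals, with Benjamini-Hochberg adjustment over all genes. Without library 1 the level differed in 38 members, and the number over all genes fell as well. The test sets the spread between libraries against counting error alone. The same test called 7122 of 13071 genes, or 54.5%, and 1536 of the 1810 other genes at 50 TPM (84.9%), so the members' 88.4% was near that of genes of like level. Hba-a1 had the widest range, with 966, 7.53 and 710 scaled counts. It reached 50 TPM through libraries 1 and 3 alone, so its difference is given without a p-value. Rasal3 had 335, 1038 and 802 scaled counts, a 3.10-fold range. The rule used its mean level, so this too is given without a p-value. Slc1a5, Sptan1 and Dgat1 also spanned 2-fold or more, at 2.36-fold, 2.32-fold and 2.01-fold, each lowest in library 1. Over all 112 members the median ratio of the highest to the lowest library was 1.31. Among the 99 genes whose level differed, the lowest library was number 1 in 52, number 2 in 20 and number 3 in 27. The highest was number 1 in 37, number 2 in 32 and number 3 in 30.

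The retained-intron share of counts could be tested between libraries in 111 members, and it differed in 56 (50.5%) by a chi-square test of retained-intron against other counts with adjustment over all genes. Without library 1 it differed in 21 members, and the number over all genes fell as well. Over all genes it differed in 2105 of 4734, or 44.5%, and in 935 of the other 1646 genes at 50 TPM (56.8%). The members' number is therefore close to the background, although the rule had left out genes whose TPM share was 50% or less in any library. Estimated counts over overlapping transcripts are less precise than the test assumes. Of the 56 members, the lowest share was in library 1 in 28, in library 2 in 12 and in library 3 in 16, and the highest in 16, 20 and 20. Among the other 2049 genes whose share differed, library 1 was lowest in 1306 (63.7%). Over all transcripts, too, library 1 held the least retained-intron RNA, 6.59% of TPM, against 8.35% in library 2 and 8.35% in library 3, and the part this plays in the members' shares was not tested.

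Lilrb4a had the widest range of those tested, 66.8%, 90.6% and 91.9% of counts, with 95% Wilson intervals of 64.3 to 69.3%, 88.9 to 92.1% and 90.2 to 93.4% (adjusted p = 3.58e-76). These intervals, like those that follow, cover counting error only. Most of the leading Lilrb4a model overlaps exons of another gene on the same strand, as given above, so its reads are uncertain. Library 1 was alone low, while the gene's scaled counts differed by 1.15-fold. Ankrd44 went the other way, with 80.1% (78.0 to 81.9%) in library 1, 65.1% (63.3 to 67.0%) in library 2 and 60.2% (58.2 to 62.2%) in library 3 (adjusted p = 1.35e-36). Rasal3 had 21.5% (17.4 to 26.2%) in library 1, against 36.8% (34.0 to 39.7%) and 35.3% (31.9 to 38.7%) in the others. Clk1 had 59.8% (58.2 to 61.4%), 63.7% (62.3 to 65.0%) and 68.9% (67.5 to 70.4%), and none of these 3 intervals overlap (adjusted p = 1.84e-14).

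Other members had shares that the libraries did not separate. Pkp3 differed by 0.10 points (adjusted p = 0.841), Ctsb by 0.52 points (adjusted p = 0.776) and Prpf38b by 3.47 points (adjusted p = 0.294). Nol7 was the reverse of Ctsb. Its level did not pass the test (adjusted p = 0.63), and its share of counts was 40.04%, 52.4% and 53.4% (adjusted p = 0.000759), while the level of Ctsb differed by 1.37-fold (adjusted p = 1.28e-74).

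**Figure D5:**
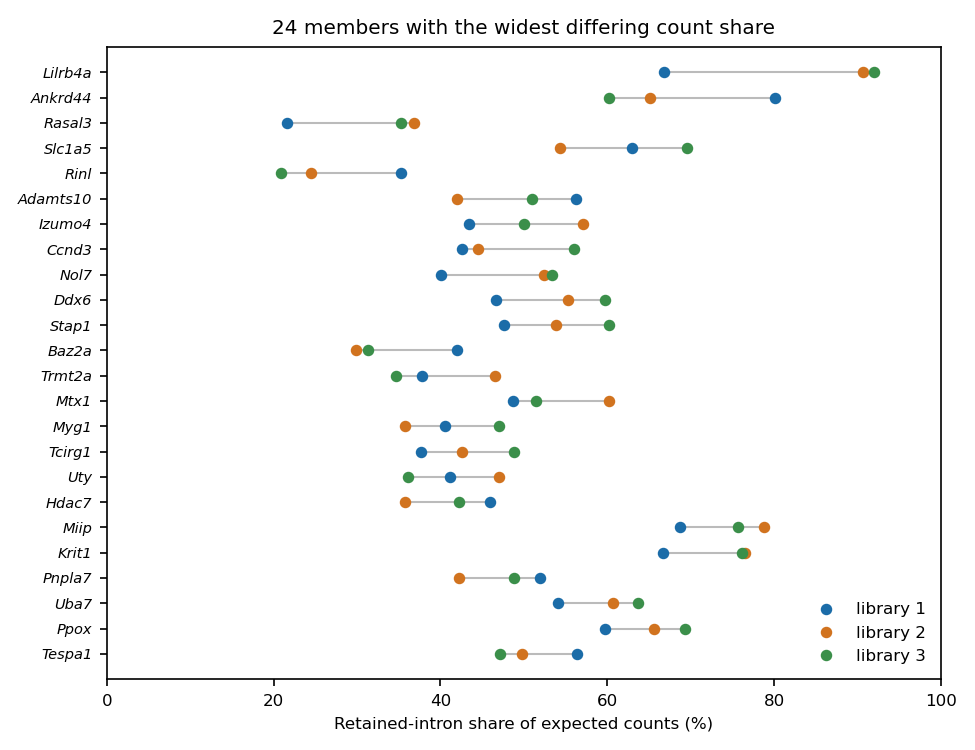
Retained-intron share of expected counts in percent (horizontal axis) in libraries 1, 2 and 3 (coloured points, joined by a grey line) for the 24 members with the widest range among the 56 whose share differed between libraries. Library 1 is the lowest point in Lilrb4a and Rasal3 and the highest in Ankrd44 and Rinl; over the 24 genes it is the lowest in 13 and the highest in 7.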

How the data were processed

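Poly(A) RNA-seq values of 3 libraries in 1 group were used, and 4 tables per library were read. The authors deposited a gene table and a transcript table with expected counts and TPM, made by alignment to mm10 transcripts of GENCODE M21, per the readme. In the transcript table the authors also deposited IsoPct, the percent of the gene's TPM held by each transcript, and a posterior mean version of it, per the file headers. Estimated counts and TPM were also deposited in another table per transcript, quantified directly from reads with an M21 index, and it is called the second transcript table. The deposited M4 gene table has whole read counts under the older GENCODE M4 annotation. Tool names, versions and the strand setting are not given in the sources used for this report. TPM of a gene is a sum over its transcripts, so a short model adds more per read than a long one.

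Transcript classes were taken from the last filled field of the transcript names. The members and the gene lists were chosen with earlier results of these data known, and the role groups after the members were seen. Library values are printed for the 12 members with the highest gene TPM, the 8 with the highest shares, those in a gene list, the 3 nearest each threshold, the 5 lowest and 3 highest in the second table, and the 5 with the largest and 3 with the smallest difference between libraries, except that some are not reported here. Members outside these groups appear by name or range, and the few printed values of them were chosen after they were seen.

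Introns and exon bases were located in the M21 annotation, and sequences were cut from M21 transcripts. Expected counts were rounded. Levels of 13071 genes with 30 or more counts and count shares of 4734 genes with 5 or more expected per cell were compared by chi-square tests of homogeneity, Benjamini-Hochberg adjusted at 0.05 over all genes, with TMM totals from edgeR 4.0.16 and, as an alternative, DESeq2 1.42.0 size factors (R 4.3.3). Tests were checked on simulated counts. Python 3.11.15, pandas 2.3.3, scipy 1.17.1 and matplotlib drew and computed the rest. Intervals are 95% Wilson intervals. Among the members, 111 were matched in the M4 gene table, with a median of 133% of their M21 counts, against 134% in the other genes. Alternatives were the second table, posterior means, counts in place of TPM, other thresholds and normalizations, the M4 counts and leaving out each library.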

Additional observations from a re-analysis of the deposited data

How the results depend on the processing

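With a share of expected counts in place of TPM the rule gave 59 genes, 49 of them members. A share over 40% gave 199 genes and over 60% gave 64. A mean of 25 TPM gave 197, of 100 TPM 49, and no level filter 533. The second transcript table gave 143 genes with 100 of the members, the posterior mean 114 with 110, and leaving out 1 library 109 to 155. The median share of the members was 68.6% in the second table, 64.8% from posterior means, 51.0% by counts and 66.1% to 66.3% with 1 library left out, where the libraries' medians had an SD of 0.33 points. By counts, 88 of 112 single shares moved down and 10 up by more than their SD. By the second table, 34 moved down and 39 up, and the cause was not tested.

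Genes whose level differed numbered 2106 without library 1 and 2106 to 6012 with any 1 library left out, members 38 to 92, lowest without library 1. Genes whose count share differed numbered 763 without library 1 and up to 1604 with another left out, members 21 to 46, again lowest without library 1. Other normalizations, count filters and tables kept these 4 counts within 1.5 times. With 2 libraries the tests have fewer counts, and this design has no biological replicate. The share of all tested genes called with 1 library left out is not given, so these member counts were not set against it. A share in library 2 of Hba-a1 rested on too few counts for the test. No paired analysis was possible because only 1 group exists. Groups of 3 are too small to search for outlying samples.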
